A study of Mus musculus with 9 samples.

Results

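Jchain, Mzb1, Sdc1, Tnfrsf17, Eaf2, Derl3 and Txndc5 are 7 genes used as markers of antibody-secreting plasma cells. They were followed here through RNA of T follicular helper (Tfh) cells sorted from mouse Peyer's patches, the lymphoid follicles of the small intestine. The members were taken by gene symbol, and all 7 were found among the 54146 genes of the table. The study compared 5 libraries from mice carrying 1 mutant and 1 wild-type allele of Tgfbr1 (WT/mut, replicates 6 to 10) with 4 libraries (WT, replicates 1, 3, 4 and 5) of their wild-type littermates. Tgfbr1 encodes a chain of the receptor by which cells sense TGF-beta. All 9 libraries came from cells sorted as CD4+CXCR5+PD1+. The labels name no marker of the B lineage that was gated out. Age, sex, strain, litter and sorting day are not given, the kind of mutation is not described, and nothing ties each library to its own animal. The p-values below therefore describe spread between libraries, which may be technical.

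A plasma cell is the end stage of the B lineage and makes antibody in large amounts. Its endoplasmic reticulum (ER) is enlarged, and the transcription factors Blimp-1 (gene Prdm1), Irf4 and Xbp1 set up the secretory machinery that folds, joins and exports antibody chains. In the gut most plasma cells make IgA, whose units are joined into dimers by the J chain before transport across the epithelium. Tfh cells are not known to secrete antibody, but parts of the same ER machinery work in any cell that exports proteins.

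Total counts lay between 29488783 and 43872686 per library, and 15521 genes were tested. The defining T cell and Tfh genes were detected in every library (10 of 10 markers). WT/mut replicate 7 stood apart with 30143 detected genes, against 17904 to 20264 in the other 8 libraries. WT/mut replicate 9 stood apart with 11.3% of its counts in its 10 highest genes, against 5.23% to 7.54% elsewhere. Results are therefore also given without these 2 libraries together, an alternative chosen after the data were seen.

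Jchain and Eaf2 were higher in every WT/mut library than in any WT library, Mzb1 and Derl3 had higher means in WT/mut cells with overlapping ranges, and Sdc1 and Txndc5 showed no difference beyond the spread between libraries. Tnfrsf17 had reads in 2 WT/mut libraries only. No member passed the threshold over all genes (0 of 6 tested, edgeR quasi-likelihood test, Benjamini-Hochberg adjusted p under 0.05), where 0.122% of all tested genes passed in either direction, 0.0322% as higher and 0.0902% as lower. At an unadjusted p under 0.05 in that test 3 of 6 were higher, namely Jchain, Mzb1 and Eaf2, against 5.69% of all tested genes (12.2% in either direction). Limma-voom also called 0 members, where it called 0.116% of all genes it tested (0.0322% as higher and 0.0838% as lower). DESeq2 called 2 as higher, Jchain and Eaf2, where it called 2.82% of all genes it tested (1.53% as higher and 1.29% as lower). The ranges of the groups were separate with WT/mut higher for 2 of the 6, against 2.06% of all tested genes (4.46% with either group higher). The 6 tested members had a median log2 fold change (WT/mut over WT) of 0.83, beside 0.0015 over all tested genes. Each of the 6 had at least 20 counts in every library, so none entered the test through 1 group alone. In bulk RNA, a different number of cells of a type and a different amount of RNA per cell cannot be told apart.

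**Figure D1:**
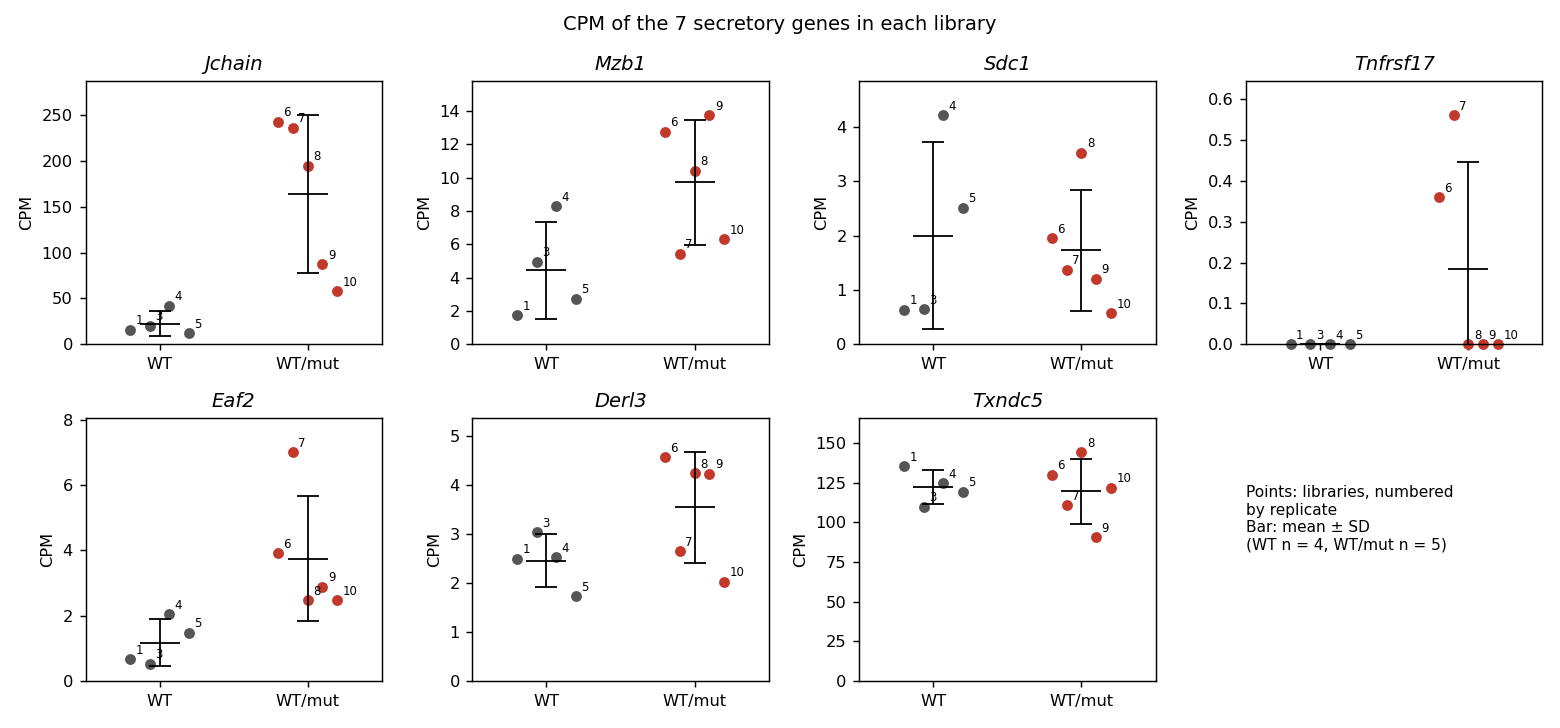
CPM (library-scaled counts, with TMM factors) of each of the 7 genes, with 1 point per library numbered by replicate, and the mean ± SD of each group (WT n = 4, WT/mut n = 5). Jchain and Eaf2 separate the groups, Txndc5 lies between 90.5 and 144 CPM in all 9 libraries, and Tnfrsf17 is above 0 only in WT/mut replicates 6 and 7.

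Jchain encodes the joining chain that links IgA into dimers and IgM into pentamers (ENSMUSG00000067149.6, chromosome 5, 88519809 to 88527891, minus strand, 4 merged exons, GRCm38). Its level, in counts per 1e6 counts of a library after TMM scaling (CPM), was 15.8, 20.3, 42.3 and 11.9 CPM in WT replicates 1, 3, 4 and 5. In WT/mut replicates 6 to 10 it was 243, 236, 195, 87.3 and 58.0 CPM. The lowest WT/mut library, replicate 10, thus lay above the highest WT library, replicate 4, and within WT/mut replicates 6, 7 and 8 lay well above replicates 9 and 10. The group means were 164 ± 86 CPM for WT/mut (SD, n = 5) and 22.6 ± 13.6 CPM for WT (SD, n = 4). On the log2 scale WT/mut exceeded WT by 2.86 ± 0.53 (SE). The adjusted p was 0.0904 with edgeR and 5.47e-05 with DESeq2. Leaving out 1 library at a time kept the fold change between 2.65 and 3.37 and the edgeR adjusted p between 0.0505 (without WT replicate 4) and 0.291 (without WT replicate 1). Without WT/mut replicates 7 and 9 together it was 2.87 (edgeR adjusted p = 0.241).

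The IgA heavy chain gene Igha was ordered across the libraries much as Jchain was. Igha stood at 13.7, 43.0, 86.5 and 21.2 CPM in the WT and at 542, 653, 493, 155 and 157 CPM in the WT/mut libraries, again without overlap (3.29 ± 0.66, edgeR adjusted p = 0.106). Ranges were separate with WT/mut higher for 2.06% of all tested genes. Counts of Igha per 100 counts of Jchain ranged from 86.8 to 212 in WT and from 178 to 276 in WT/mut libraries, so the ranges of this ratio overlapped. The kappa light chain gene Igkc was at 344 to 624 counts per 100 of Jchain in WT and at 147 to 360 in WT/mut libraries. The IgM heavy chain gene Ighm did not follow Jchain. It was abundant in all libraries, at 1739 to 2312 CPM in WT and 1437 to 1958 CPM in WT/mut cells (-0.17 ± 0.12, edgeR adjusted p = 0.550). Of 11 tested antibody constant genes, 0 passed over all genes with edgeR, and the median log2 fold change was 1.63. At an unadjusted edgeR p under 0.05, 7 were higher and 0 lower, against 5.69% and 6.46% of all tested genes. Iglc1, at 4.30 ± 1.20 (edgeR adjusted p = 0.260), was 2.60 without WT/mut replicate 6. DESeq2 called 4 antibody constant genes, all higher (Igha, Ighg3, Igkc and Iglc1), against 1.53% of all genes it tested. Limma-voom called 0 of the antibody constant genes. These constant genes share similar sequences, and the split of reads between the lambda genes in particular is uncertain.

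**Figure D2:**
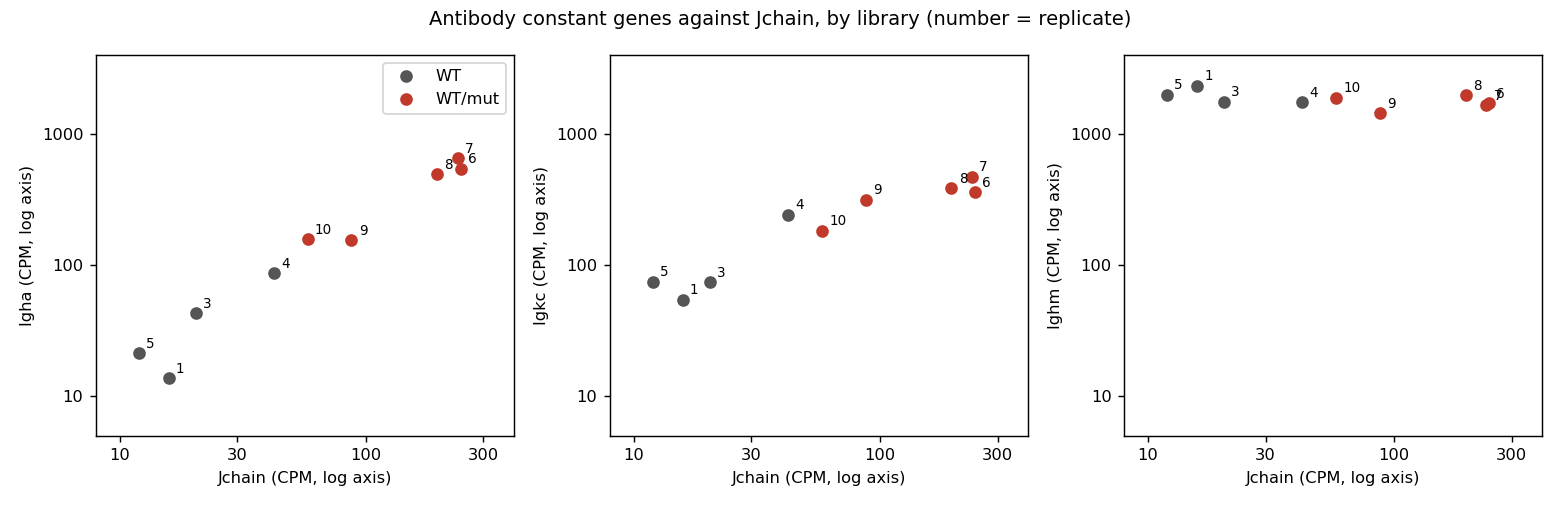
CPM of Igha, Igkc and Ighm against CPM of Jchain in each of the 9 libraries (both axes logarithmic, numbers are replicates, grey WT, red WT/mut). Igha is low in libraries with low Jchain and high in those with high Jchain, while Ighm stays between 1437 and 2312 CPM over the whole range of Jchain.

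Mzb1, Derl3 and Txndc5 work inside the ER. Mzb1 is a chaperone of antibody assembly in marginal zone B cells and plasma cells. Its level was 1.74, 4.96, 8.29 and 2.72 CPM in WT replicates 1, 3, 4 and 5, and 12.7, 5.42, 10.4, 13.7 and 6.30 CPM in WT/mut replicates 6 to 10. WT replicate 4 lay above WT/mut replicates 7 and 10, so the groups overlapped. The log2 fold change was 1.14 ± 0.45 (SE; edgeR adjusted p = 0.366), with group levels of 9.72 ± 3.74 and 4.43 ± 2.90 CPM. It was 1.63 without WT replicate 4 and 0.87 without WT replicate 1. The order of libraries was not that of Jchain, since WT/mut replicate 9 was highest for Mzb1 but next to lowest of its group for Jchain. Mzb1 shares 695 of its 1215 exon bases with SPATA24 on the same strand, so the assignment of reads to it is uncertain.

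Derl3 encodes a derlin, a membrane protein of the pathway that removes misfolded proteins from the ER for degradation (ENSMUSG00000009092.5, chromosome 10, 75893413 to 75895941, plus strand). Its level was 2.5, 3.04, 2.53 and 1.73 CPM in the WT and 4.57, 2.65, 4.24, 4.23 and 2.03 CPM in the WT/mut libraries. WT/mut replicates 6, 8 and 9 lay above all WT libraries, and replicates 7 and 10 lay within their range. The log2 fold change was 0.53 ± 0.35 (SE; edgeR adjusted p = 0.531). Against 100 counts of Jchain there were 5.99 to 15.8 counts of Derl3 in WT and 1.12 to 4.85 in WT/mut libraries, without overlap. Jchain alone separated the groups, so this ratio says little about Derl3 itself. Ighm, which did not follow Jchain, also had separate ratios, 4116 to 16575 in WT and 696 to 3228 in WT/mut libraries. Mzb1 was at 11.0 to 24.4 per 100 counts of Jchain in WT and at 2.29 to 15.7 in WT/mut libraries.

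The upstream windows of Jchain and Derl3 are shown because Jchain had the largest fold change among the 6 tested members (edgeR) and the Derl3 window holds a rare element of the ER stress response. Each window is the 250 bases before the transcription start in RefSeq (GRCm38.p6), on the strand of the gene, and capitals mark the fixed letters of an ER stress response element. This element reads CCAAT, then 9 bases of any kind, then CCACG, on either strand, and is known to be bound by ATF6 and XBP1 together with NF-Y.
Jchain, chr5:88527898-88528147, minus strand: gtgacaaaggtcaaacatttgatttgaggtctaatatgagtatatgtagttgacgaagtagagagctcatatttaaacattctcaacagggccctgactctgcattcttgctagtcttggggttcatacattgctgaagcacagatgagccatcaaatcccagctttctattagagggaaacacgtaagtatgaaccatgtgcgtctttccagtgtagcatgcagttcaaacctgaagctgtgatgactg
Derl3, chr10:75893148-75893397, plus strand: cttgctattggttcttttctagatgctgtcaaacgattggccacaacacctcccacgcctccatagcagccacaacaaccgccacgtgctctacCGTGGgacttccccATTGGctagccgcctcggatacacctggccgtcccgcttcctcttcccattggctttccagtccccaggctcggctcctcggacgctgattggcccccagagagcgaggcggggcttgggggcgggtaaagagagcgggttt
The Derl3 window holds 1 such element, on the opposite strand and starting 156 bases before the start site. The element was found in 37 of 32851 windows of this length, or 0.113%. Its parts CCAAT and CCACG, searched alone, were present in 33.9% and 28.3% of windows. The Derl3 window held 5 matches of CCAAT and 3 of CCACG, counting those within the element. Neither part was in the Jchain window, nor were TGACGTGG (0.563% of windows), an XBP1 site, or the octamer ATTTGCAT (1.60%), each searched on both strands. TGACGTGG was found in 1 of the 3 windows of Txndc5, where it overlaps a match of CCACG, and ATTTGCAT in none of the windows of the 6 members searched (Mzb1 was not searched). A match describes the letters only.

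Txndc5, a protein disulfide isomerase that forms disulfide bonds in the ER (ENSMUSG00000038991.17, chromosome 13, 38500079 to 38528824, minus strand), had nearly the same level in both groups. Its level was 135, 110, 125 and 119 CPM in WT and 130, 111, 144, 90.5 and 122 CPM in WT/mut libraries. The ranges overlapped almost completely, and the fold change of -0.03 ± 0.13 (SE; edgeR adjusted p = 0.939) had no stable sign. It was 0.0072 with library size as the only scaling, and 0.06 without WT/mut replicate 9. Its exons share 224 bases with Bmp6 and 311 with the antisense gene Gm31834, both on the other strand, which this kit cannot separate.

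Sdc1 and Tnfrsf17 are on the cell surface. Sdc1 encodes syndecan-1 (CD138), the proteoglycan by which plasma cells are usually sorted (ENSMUSG00000020592.14, chromosome 12, 8771323 to 8793715). It stood at 0.633, 0.647, 4.22 and 2.51 CPM in WT and at 1.95, 1.37, 3.53, 1.21 and 0.575 CPM in WT/mut libraries. The highest and the second lowest library were both WT and the lowest was WT/mut, so the groups overlapped. Epithelial cells are also known to express this gene. The summed level of 8 epithelial markers was highest in WT replicate 4, at 431 CPM, the library highest in Sdc1, and lay between 31.8 and 250.0 CPM in the other 8. The order of the other libraries was not the same for both. WT/mut replicate 9, next in epithelial markers, had Sdc1 at 1.21 CPM. WT/mut replicate 8, next in Sdc1, had an epithelial sum of 116 CPM. The part of epithelial cells in Sdc1 was not tested. The log2 fold change of Sdc1 was -0.21 ± 0.68 (SE; edgeR adjusted p = 0.921) and turned to 0.46 without WT replicate 4.

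Tnfrsf17 encodes BCMA, the receptor for APRIL and BAFF that supports survival of long-lived plasma cells (ENSMUSG00000022496.5, chromosome 16, 11313812 to 11320074). It had 12 counts in WT/mut replicate 6 and 18 in replicate 7. The other 7 libraries had 0, and it did not pass the filter on low counts. Both libraries were also the highest in Jchain and in Eaf2. Replicate 7 was also the library that stood apart with 30143 detected genes, against 17904 to 20264 elsewhere. Low counts of many other genes were thus found in replicate 7 as well, and their part in Tnfrsf17 was not tested. Over the groups Tnfrsf17 had 30 counts against 0. The WT group was set to a floor of 3 counts over its 4 libraries together, or 0.0199 CPM. Against that floor WT/mut was 9.01-fold higher. The floor covers counting error of the WT group only. The 30 counts were taken as exact and the libraries of a group were pooled, so the value is not a lower bound. Of the 5 WT/mut libraries, 3 were at 0 as well. A WT level under that floor was not detectable at this depth.

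Eaf2 encodes a factor that binds ELL proteins in transcription elongation and is known for high levels in B cells and plasma cells (ENSMUSG00000022838.14, chromosome 16, 36792884 to 36875003, minus strand). Its level was 0.665, 0.527, 2.04 and 1.48 CPM in WT replicates 1, 3, 4 and 5. In WT/mut replicates 6 to 10 it was 3.91, 7.01, 2.47, 2.88 and 2.46 CPM. All WT/mut libraries lay above all WT libraries, with a narrow gap between WT replicate 4 and WT/mut replicate 10, and WT/mut replicate 7 was highest. WT/mut exceeded WT by 1.67 ± 0.52 (SE) on the log2 scale. The adjusted p was 0.280 with edgeR and 0.0445 with DESeq2. It was 1.31 without WT/mut replicate 7 and 2.08 without WT replicate 4. The genes of its family and partners did not pass: Eaf1 was at 0.02 ± 0.12, Ell at 0.07 ± 0.12, Ell2 at 0.30 ± 0.19 and Ell3 at 0.81 ± 0.44, with edgeR adjusted p between 0.467 and 0.950.

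**Figure D3:**
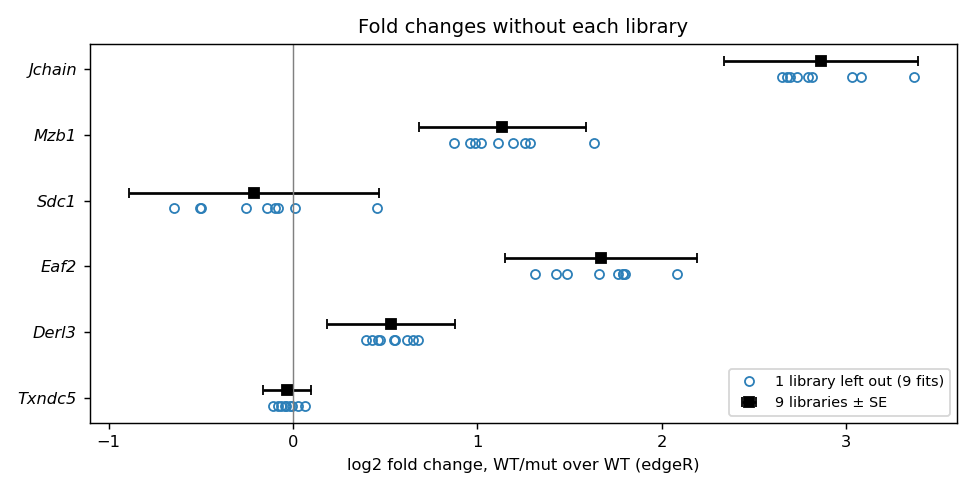
Log2 fold changes (WT/mut over WT, edgeR) of the 6 tested genes with all 9 libraries (squares, ± SE) and with each library left out (open circles, 9 fits). Jchain, Mzb1, Eaf2 and Derl3 stay above 0 in all fits, while Sdc1 and Txndc5 lie on both sides of 0.

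Compared per length of merged exons, Txndc5 was the most abundant member in WT cells, at 27.3 ± 2.4 CPM per kb (SD, n = 4). Jchain followed at 8.97 ± 5.39, Mzb1 at 3.64 ± 2.39, Derl3 at 1.23 ± 0.27, Sdc1 at 0.526 ± 0.452 and Eaf2 at 0.269 ± 0.162 CPM per kb. From Jchain to Eaf2 each neighbour in this order overlapped the next, and the ranges of Txndc5 and Jchain were separate. In WT/mut cells Jchain came first, at 65.1 ± 34.2 CPM per kb (SD, n = 5), and its range overlapped that of Txndc5 at 26.6 ± 4.5. Mzb1 (8.00 ± 3.08), Derl3 (1.78 ± 0.57), Eaf2 (0.857 ± 0.439), Sdc1 (0.453 ± 0.294) and Tnfrsf17 (0.226 ± 0.321) followed. Mzb1 did not overlap its neighbours there, and Eaf2 overlapped both Derl3 and Sdc1. The 7 genes thus spanned a wide range of levels, from Txndc5, high and even throughout, to Tnfrsf17, at 0 in 7 of 9 libraries.

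The regulators of the plasma cell programme had higher means in WT/mut cells for 4 of 5 genes, with 0 called over all genes by edgeR. At an unadjusted edgeR p under 0.05, 2 were higher, against 5.69% of all tested genes. Prdm1, which encodes Blimp-1, averaged 18.1 ± 5.5 CPM in the WT/mut and 9.46 ± 3.46 CPM in the WT group (0.94 ± 0.30, edgeR adjusted p = 0.287). Pou2af1, a coactivator of antibody genes, was at 141 ± 33 and 91.1 ± 28.3 CPM (0.63 ± 0.22, edgeR adjusted p = 0.324). Both overlapped between the groups, and both genes are also known to be expressed in T cells. Xbp1 was at 194 ± 18 and 201 ± 30 CPM (-0.05 ± 0.11, edgeR adjusted p = 0.886). Of the 4 genes of the APRIL and BAFF axis, 3 had negative fold changes and 0 reached an unadjusted p of 0.05. The TACI receptor gene Tnfrsf13b was at -0.23 ± 0.11, the BAFF receptor gene Tnfrsf13c at 0.55 ± 0.38 and the BAFF gene Tnfsf13b at -0.20 ± 0.23, with edgeR adjusted p between 0.434 and 0.744. DESeq2 and limma-voom called 0 genes of either list.

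Most genes of the general ER machinery did not have the direction of Jchain. Of 18 tested ER folding genes, 8 had positive and 10 negative fold changes (median -0.06). Of 12 genes of protein entry into the ER, 4 were positive and 8 negative (median -0.17), and of 11 genes of ER disposal 2 were positive and 9 negative (median -0.14). With edgeR, 0 of these 41 genes passed over all genes, 1 was higher and 7 were lower at an unadjusted p under 0.05, against 5.69% and 6.46% of all tested genes. The higher one was Hsp90b1, the ER chaperone GRP94, with 407 ± 36 CPM in the WT/mut and 291 ± 20 CPM in the WT group, and with separate ranges (0.49 ± 0.09, edgeR adjusted p = 0.0936). Ranges were separate with WT/mut higher for 2.06% of all tested genes. DESeq2 called 2 of the 41, Hsp90b1 as higher and Ssr4 as lower, against 1.53% and 1.29% of all genes it tested. Limma-voom called 0 of the 41. Among the 7 lower ones, the translocon-associated gene Ssr4 was at -0.22 ± 0.08, the chaperone gene Dnajb9 at -0.37 ± 0.14, Edem2 at -0.42 ± 0.17, and the derlin gene Derl2, a relative of Derl3, at -0.43 ± 0.19. Their edgeR adjusted p lay between 0.339 and 0.391. Without WT replicate 1, Edem2 was at -0.19 and Derl2 at -0.18. Fkbp11, an ER prolyl isomerase abundant in secretory cells, was not tested because of low counts. It had 46, 24 and 33 counts in WT/mut replicates 7, 8 and 10, none in replicates 6 and 9, and at most 2 in a WT library.

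**Figure D4:**
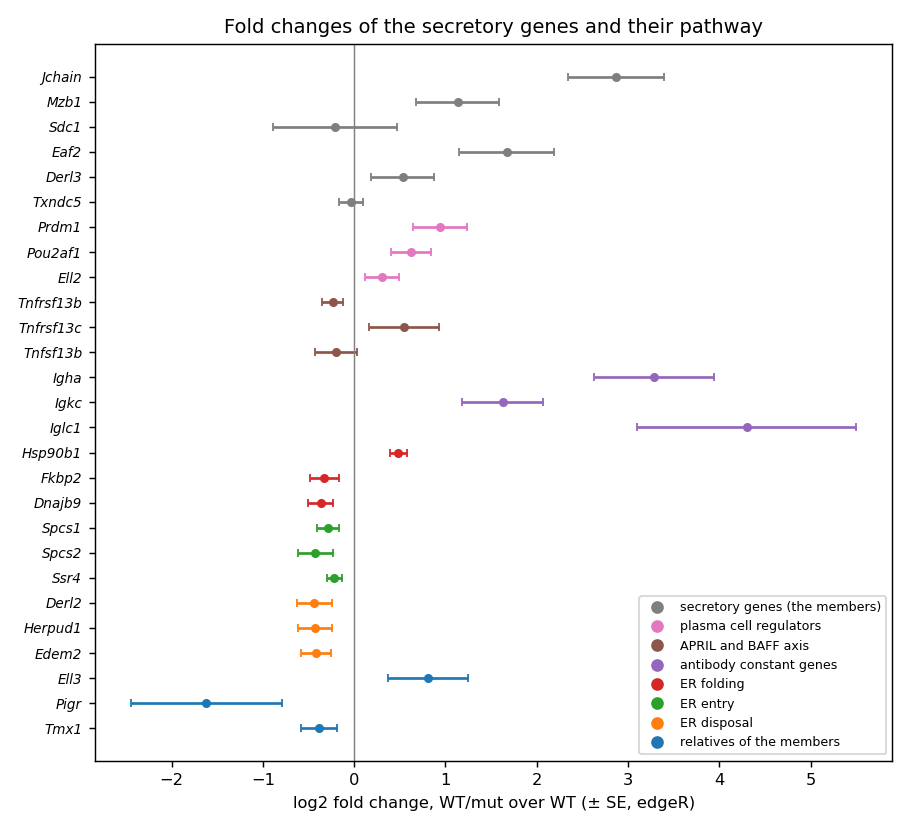
Log2 fold changes (WT/mut over WT) with their SE from edgeR for the 6 tested secretory genes and for the 3 genes of lowest p in each pathway list, coloured by list. Jchain, Eaf2 and the antibody genes Igha, Igkc and Iglc1 lie above 1.5, while the ER entry and disposal genes lie between -0.43 and -0.22.

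The summed levels of marker lists of other cells are given beside these results, and their part in them was not tested. All 10 B cell markers were detected in every library, and their summed level was 126 to 334 CPM in WT and 258 to 598 CPM in WT/mut libraries. All 10 had positive fold changes (median 0.62), and 0 passed over all genes with edgeR, DESeq2 or limma-voom. At an unadjusted edgeR p under 0.05, 3 were higher, against 5.69% of all tested genes. The library highest in B cell markers was WT/mut replicate 9, which was next to lowest of its group in Jchain. Replicates 6 and 8 followed at 366 and 350 CPM, with Jchain at 243 and 195 CPM. Replicate 7, with Jchain at 236 CPM, had the lowest B cell sum of its group, 258 CPM. The sum of 5 red cell markers was 98.4 to 282 CPM in WT and 398 to 869 CPM in WT/mut libraries, without overlap. It was highest in WT/mut replicate 10, the WT/mut library lowest in Jchain. Replicate 6, the highest in Jchain, was next at 694 CPM, and replicate 7, next in Jchain, was lowest of its group at 398 CPM. All 5 red cell markers were higher at an unadjusted edgeR p under 0.05, against 5.69% of all tested genes. With edgeR or limma-voom 0 passed over all genes. DESeq2 called all 5 as higher, against 1.53% of all genes it tested. The 10 T cell and Tfh markers summed to 8651 to 9323 CPM in WT and to 7974 to 8531 CPM in WT/mut libraries, also without overlap. Of these, 3 were lower at an unadjusted edgeR p under 0.05, against 6.46% of all tested genes. With edgeR or limma-voom 0 passed. DESeq2 called Icos as lower, as it did 1.29% of all genes it tested.

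Sums of the other lists overlapped between the groups. Germinal centre B cell markers (5 or 6 of 6 detected) summed to 86.3 to 111 CPM in WT and 67.8 to 119.5 CPM in WT/mut libraries. Myeloid markers (5 or 6 of 6 detected) summed to 61.0 to 195 and 62.1 to 333 CPM. Plasmacytoid dendritic cells are known to share several secretory genes with plasma cells. Their 6 markers summed to 117 to 188 CPM in WT and 153 to 185 CPM in WT/mut libraries, of which Pacsin1 made up most. Tcf4 had separate ranges, 4.43 to 8.93 CPM in WT and 9.20 to 15.2 CPM in WT/mut libraries (0.76 ± 0.25, edgeR adjusted p = 0.295). Such separation with WT/mut higher was seen for 2.06% of all tested genes. Ccr9 was at 17.6 to 23.7 and 21.6 to 38.2 CPM (0.65 ± 0.18, edgeR adjusted p = 0.246). DESeq2 called Ccr9 as higher, as it did 1.53% of all genes it tested. Siglech, Cox6a2 and Klk1, too low to be tested, did not exceed 2.34, 0.222 and 0.931 CPM in any library. The stromal and endothelial list summed to 143 to 196 and 153 to 224 CPM, of which Pecam1 made up most, and Pdpn was at 0 in all 9 libraries.

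**Figure D5:**
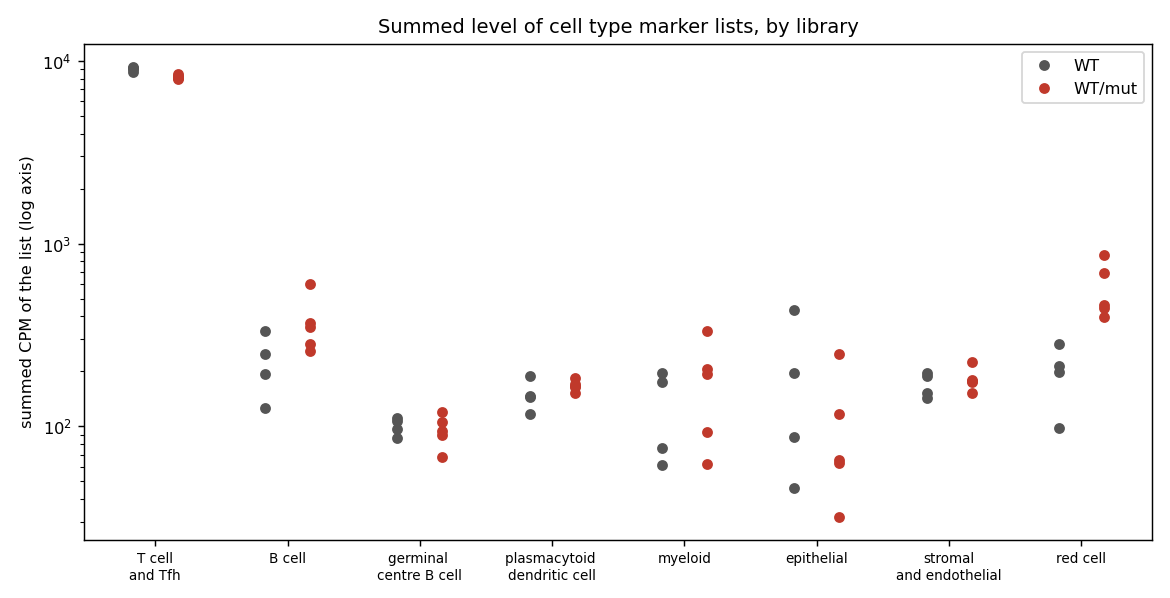
Summed CPM of each marker list (logarithmic axis) with 1 point per library, grey for WT and red for WT/mut. The sums of T cell and red cell markers do not overlap between the groups, and the B cell sums reach from 126 to 334 CPM in WT and from 258 to 598 CPM in WT/mut libraries.

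The mean log2 CPM of the 7 members was compared with every other tested gene across the 9 libraries, as a description. This mean includes Tnfrsf17, which was too low to be tested. Its log2 CPM was -4.15 at 0 counts, and -1.26 and -0.70 in WT/mut replicates 6 and 7. Genotype, cell composition and depth differ between libraries and are common to all genes of a library, so a high correlation says only that the profiles were alike. Apart from antibody genes, the genes with the highest Pearson r were Azi2 (0.97), Ppl (0.94), Nin (0.94), Epm2aip1 (0.94), RP23-377G8.5 (0.94) and Tgfbr3l (0.93). Of these, Ppl and Tgfbr3l were low, with 183 and 113 counts over all libraries. With the mean of each group taken away the highest were RP24-320I19.2 (0.96), Prdm10 (0.95), Epm2aip1 (0.95), Azi2 (0.95), Pik3ca (0.93) and Cacna1a (0.93). Among the 50 highest of either ranking, 4 were immunoglobulin genes, and the gene in place 50 still had r of 0.87 and 0.85.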

How the data were processed

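RNA was sequenced from sorted Peyer's patch Tfh cells by low-input SMART-Seq without strand information, per the labels' protocols. The values deposited by the authors are expected counts per gene, some of them not whole. The submitters' processing notes name the mm10 build, RSEM 1.3.0, STAR 2.5.3, cutadapt 2.10 and DESeq2, without their order. The annotation release is not stated there. An expected count shares reads between similar genes by a model. Values were rounded. In R 4.3.3, edgeR 4.0.16 (TMM, filterByExpr with minimum count 10, robust quasi-likelihood fit, no covariate, 5 against 4 libraries) was run on all 15521 genes that passed, with Benjamini-Hochberg adjustment over them and a threshold of 0.05. The SE of a fold change was derived from its F statistic. The test was checked on simulated counts. Log2 CPM used a prior count of 2.

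Gene positions and exon lengths are from GENCODE M21 (GRCm38), in which 54079 of 54146 identifiers were found by stable ID without version. Alternatives used DESeq2 1.42.0, limma 3.58.1, other scalings and filters, and fits without each library. Members and gene lists were chosen with earlier results of these data known. The genes named beside the members are the 3 of lowest p in each pathway list, the top 6 by likeness, and others chosen after their values were seen. The others chosen after their values were seen are Xbp1, Ighm, Ighg3, Eaf1, Ell and Fkbp11. From the marker lists they also include Icos, Tcf4, Ccr9, Siglech, Cox6a2, Klk1, Pacsin1 and Pecam1. Total counts per library, 29488783 to 43872686, set the counting precision. The floor used for Tnfrsf17 covers counting error only. The SD and SE values also hold the spread between libraries.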

Additional observations from a re-analysis of the deposited data

Results flagged for a closer look

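In the 28 genes named by the fixed rule, each group of libraries was checked for 1 library far from the others, which made 56 checks, and 3 were found. Chance marks about 1 in 20 groups. Igkc was at 241 CPM in WT replicate 4, against 54.3 to 74.5 CPM in the other WT libraries. Iglc1 was at 125 CPM in WT/mut replicate 6, against 3.84 to 29.0 CPM in the other WT/mut libraries. Edem2, a gene of ER disposal, was at 251 CPM in WT replicate 1, against 147 to 157 CPM in the other WT libraries. None of the 7 secretory genes was marked in either group.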

How the results depend on the processing

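No paired analysis was possible because litter is not given and the 2 groups share no replicate number. Which libraries came from the same litter is therefore not known. The count of members called by edgeR was 0 in all edgeR alternatives and in limma-voom, and 2 with DESeq2 (Jchain and Eaf2). The count of genes called was 19, against 495 with DESeq2, between 2 and 23 without 1 library, and 1 without WT/mut replicates 7 and 9 together. Scaling by library size alone called 8 genes as higher and 14 as lower, against 5 and 14. The fold changes of Jchain, Mzb1, Eaf2 and Derl3 kept their sign in 17 of 17 alternatives. Without WT/mut replicates 7 and 9 together the edgeR adjusted p was 0.815 for Mzb1, 0.796 for Eaf2 and 0.867 for Derl3. For Mzb1, Eaf2 and Derl3 these were the highest adjusted p among the alternatives. Sdc1 turned to 0.019 with limma-voom and to 0.012 without WT/mut replicates 7 and 9, and ranged from -0.645 to 0.458 without 1 library. Txndc5 turned to 0.0072 with library size only and to 0.11 without WT/mut replicates 7 and 9, and ranged from -0.108 to 0.0633 without 1 library. Tnfsf13b ranged from -0.341 to 0.0391 without 1 library. The cause was not tested. Igkc passed when WT replicate 4 was left out (2.35, edgeR adjusted p = 0.0143). Tnfrsf17 could be fitted only without the filter (edgeR adjusted p = 0.296) and by DESeq2, which gave it no adjusted p. Low counts limit Tnfrsf17, Sdc1 and Eaf2.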
